A study of Mus musculus with 18 samples.

Results

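The p53 pathway was followed here through Trp53, the mouse gene of the p53 tumor suppressor, and 9 genes known as its transcriptional targets: Cdkn1a, Mdm2, Ccng1, Perp, Bax, Sesn1, Sesn2, Trp53inp1 and Zmat3. Members were found by gene symbol in the platform annotation of the deposited value table. Of the 10 genes named, 8 had probe sets of their own, 18 in all, among 18193 genes with a probe set. Trp53 and Bax were not analysed here. All 8 genes lay above the filter on low values, and the brightest probe set, by its mean over the sorted-cell arrays, stands for a gene.

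Sorted mouse mammary cells were measured on one-colour Affymetrix arrays, which hold several short probes per transcript and give 1 signal value per probe set, in arbitrary units. The material was of 3 kinds: mammary tumors, cells labelled as normal mammary epithelium, and 1 commercial reference RNA. Tumors 1, 2 and 7 were each sorted by CD29, an integrin subunit, and CD24, a surface glycoprotein, into CD29H CD24H, CD29H CD24L, CD29L CD24H and CD29L CD24L cells (H high, L low), 1 array each, so that n = 3 per fraction. Normal preparations 1 and 2 each gave CD29H CD24P and CD29P CD24H cells (P positive), so that n = 2 per gate, and preparation 2 gave 1 further array of CD24L cells. Tumors 1 and 2 are labelled transplant generation 1, and tumor 7 carries no generation. From what is known of the study, the tumors arose from Trp53-null mammary epithelium transplanted into the fat pads of wild-type mice, so that host stroma and immune cells in a tumor keep a working Trp53. The labels used here name no allele, strain, genotype or age, and nothing on the normal donors beyond the tissue. The Trp53 genotype could not be checked on these arrays, since Trp53 was not analysed here. In the study, CD29H CD24H was the fraction of interest for tumor initiation.

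p53 is a transcription factor that is held low by the ubiquitin ligase Mdm2 and accumulates after DNA damage, oncogene activity and other stress. It binds paired copies of a short half-site near its target genes, whose products arrest the cell cycle, repair DNA, alter metabolism or kill the cell. Many of these genes are also driven by other factors, among them the p53 relatives p63 and p73, and p63 is the family member of basal mammary epithelium.

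All arrays had been scaled to 1 common trimmed mean, and array medians on the log2(signal + 32) scale lay between 6.70 and 7.09. The mean of the epithelial marker list (Epcam, Cdh1 and 4 keratins; log2 scale) was 11.4 to 13.2 over the 12 tumor arrays and 12.1 to 13.5 over the 4 arrays of the normal gates. It was 7.44 on the normal CD24L array, where the fibroblast list stood at 14.2, so that the markers of that array go against its label, and it entered no main comparison. The fibroblast list of 11 genes had a range of 8.97 to 13.5 in tumors and 7.33 to 8.62 in the normal gates. The list of 10 macrophage and leukocyte genes had a range of 7.98 to 11.3 in tumors and 6.83 to 7.43 in the normal gates. The 3'/5' signal ratio of the actin control probe sets, which rises when amplified RNA is short, was 14.4 to 99.3 on tumor arrays and 3.08 to 24.7 on the arrays of the normal gates. Host cells, RNA quality and tumor origin therefore move together in every comparison of tumors with normal cells, and their parts in it cannot be told apart. In sorted bulk RNA, fewer cells of a type and less RNA per cell cannot be told apart either.

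The promoters of Cdkn1a and Ccng1 are shown to make the regulatory link concrete, since Cdkn1a is the classic p53 target and its upstream start carries a paired element, while Ccng1 shows the single half-site seen in other members. RefSeq promoters (GRCm38.p6, 250 bases before to 50 bases after each start) were found for 7 of the 10 members, in 9 windows. Capitals mark every exact match to the p53 half-site consensus, searched on both strands. In Cdkn1a they also mark the paired element, made of adjoining half-sites with at most 1 mismatch in all. The mismatch had to lie outside the central CWWG (W is A or T) of each half-site. Cdkn1a, chr17:29090729-29091028, plus strand; Ccng1, chr11:40755237-40755536, minus strand:
Cdkn1a: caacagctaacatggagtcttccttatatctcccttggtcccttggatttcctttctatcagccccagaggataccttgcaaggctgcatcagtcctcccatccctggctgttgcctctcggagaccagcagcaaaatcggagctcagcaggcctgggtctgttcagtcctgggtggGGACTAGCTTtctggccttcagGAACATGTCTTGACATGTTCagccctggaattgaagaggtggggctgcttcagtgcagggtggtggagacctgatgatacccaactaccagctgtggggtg
Ccng1: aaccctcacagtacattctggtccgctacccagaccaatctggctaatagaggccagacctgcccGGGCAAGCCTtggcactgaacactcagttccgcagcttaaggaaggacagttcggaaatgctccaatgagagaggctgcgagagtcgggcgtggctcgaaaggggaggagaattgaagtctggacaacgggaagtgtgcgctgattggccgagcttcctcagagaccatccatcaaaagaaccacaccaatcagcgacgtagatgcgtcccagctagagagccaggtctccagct
The Cdkn1a element, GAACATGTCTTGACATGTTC, spans bases -51 to -32 from the start of this transcript and differs from the consensus at 1 base. A further half-site begins at base -73. The window at the other Cdkn1a start, chr17:29093519-29093818, holds neither motif. The Ccng1 half-site begins at base -185. Such a paired element was in 1 of the 9 windows and in 0.0548% of all 32851 promoters of this length, and a half-site was in 6 of the 9 windows against 8.36% of all. These matches are descriptions of letters in a window; binding was not measured.

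Tumors were first compared with normal epithelium, through 1 mean per tumor over its 4 fractions (n = 3) and 1 mean per normal preparation over its 2 gates (n = 2). None of the 8 members passed limma's test at an adjusted p under 0.05 (0 higher and 0 lower), while 7.32% of the 10916 genes tested passed in either direction. At an unadjusted p under 0.05 there were 2 members and 2929 of the 10916 genes, so that 2 of 8 is near the background. The median difference of the members was 0.091 and that of all genes tested 0.041 on the log2(signal + 32) scale, on which all differences below are given. Of the 8 members, 4 were higher and 4 lower in tumors, where 47.8% of all genes tested were lower. This split is near that share, and nothing is read from it about the targets.

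Cdkn1a encodes p21, the inhibitor of cyclin-dependent kinases through which p53 arrests the cell cycle. Its signal in the 4 fractions, CD29H CD24H, CD29H CD24L, CD29L CD24H and CD29L CD24L in that order, was 14554, 15327, 21644 and 15809 units in tumor 1. It was 8840.1, 6817, 9006 and 16516 units in tumor 2, and 4304, 6855, 4756 and 4440.2 units in tumor 7. Tumor 1 was high in every fraction and tumor 7 low, though level with tumor 2 in CD29H CD24L cells. Tumor 2 reached the level of tumor 1 in CD29L CD24L cells only. The normal CD29H CD24P arrays stood at 7526 and 7749 units and the CD29P CD24H arrays at 16378 and 10379 units, inside the range of the tumors. The tumor minus normal difference was -0.10 ± 0.47 (SE; limma adjusted p = 0.911). Without tumor 7 it was 0.35 (adjusted p = 0.459) and without normal preparation 1 0.055, so that its sign is not settled by these arrays.

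A second, dimmer Cdkn1a probe set gave another picture. Its signal on the normal gate arrays was 1301 to 2645 units, and over the 12 tumor arrays the lowest, median and highest values were 48.2, 380.2 and 3091 units. Of the tumor arrays, 10 lay below all 4 normal ones. In the limma fit of each probe set by itself the difference was -2.25 ± 0.75 (adjusted p = 0.11), where 6.95% of 20967 probe sets passed. The 2 tumor arrays with the highest signal in this probe set, tumor 2 CD29L CD24L at 3091 and tumor 2 CD29H CD24H at 1741 units, are those with the lowest actin 3'/5' ratios among tumor arrays, 14.4 and 23.2. The part of the actin ratio in this disagreement between the probe sets was not tested. Taking the mean of both probe sets turned the CD29H CD24H comparison below from 0.11 to -1.17, so that the tumor level of Cdkn1a depends on the probe set read.

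**Figure D1:**
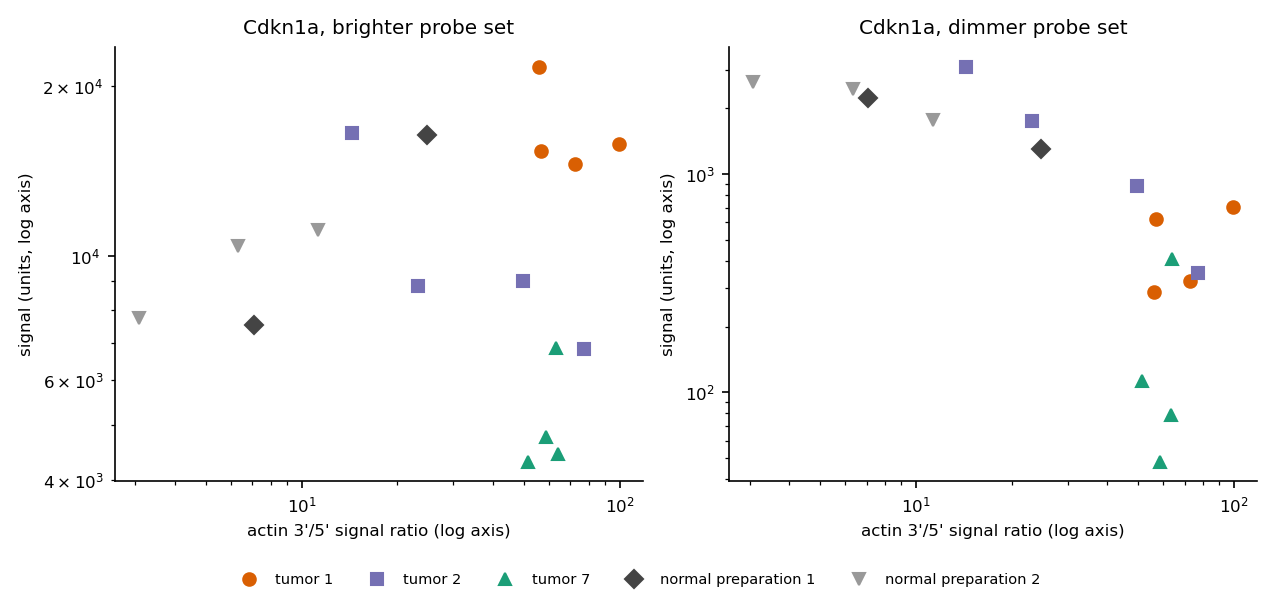
Signal of the brighter (left) and dimmer (right) Cdkn1a probe sets on the 17 sorted-cell arrays (1 point per array, log axes, arbitrary units) against the actin 3'/5' signal ratio of the same array. In the dimmer probe set the tumor arrays reach down to 48.2 units. The 2 tumor arrays of lowest ratio, 14.4 and 23.2, are the highest there, at 3091 and 1741 units. The brighter probe set shows tumor 1 high and tumor 7 low, though tumors 7 and 2 are level in CD29H CD24L cells.

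Mdm2 encodes the ligase that targets p53 for degradation and is itself a p53 target, which closes a feedback loop. Its signal on the 4 arrays of the normal gates was 2110 to 2509 units, a narrow range. In the tumors, 8 of 12 arrays lay above all 4 and 3 below, from 857 units in tumor 7 CD29H CD24H cells to 5451 units in tumor 1 CD29L CD24L cells. The tumor minus normal difference was 0.33 ± 0.30 (limma adjusted p = 0.51). With only the CD29H CD24H and CD29L CD24H arrays of the tumors it was -0.11, so that its sign rests on the CD24L fractions. A second, dimmer Mdm2 probe set read 253 to 641 units in the normal gates. In it 6 of 12 tumor arrays lay above all 4 normal ones and 0 below, with a difference of 0.36 (limma adjusted p = 0.514).

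Ccng1 encodes cyclin G1, a target that feeds back on Mdm2 through a phosphatase. Tumor signals had a lowest, median and highest value of 1953, 3853 and 6918 units, and normal gate signals were 4503, 3312, 13794 and 7207 units (CD29H CD24P preparations 1 and 2, then CD29P CD24H). No tumor array lay above all normal ones and 5 lay below all. The difference was -0.71 ± 0.32 (limma adjusted p = 0.208), and its other 2 probe sets differed by -0.94 and -0.89, in the same direction.

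Perp encodes a tetraspan membrane protein of desmosomes that is a target of both p53 and p63. In tumor 1 its signal was 20319 to 47866 units, in tumor 2 15247 to 27044 and in tumor 7 5891 to 8656. The normal gates gave 12374, 10961, 4900.2 and 4681 units in the order above. All 8 arrays of tumors 1 and 2 lay above every normal array, and all 4 of tumor 7 lay within the normal range. The difference was 1.01 ± 0.54, or 2.01-fold (limma adjusted p = 0.27). Without tumor 7 it was 1.58 (adjusted p = 0.015), in a fit in which 14.5% of all genes passed. Tumor 7 also differed from the others in cell markers. Its mean of the basal list was 7.20 to 7.79 over the 4 fractions (log2 scale), against 10.7 to 11.4 in tumor 1 and 9.59 to 9.83 in tumor 2. Trp63, the gene of p63, read 189 to 451 units in tumor 7, 2746 to 7526 in tumor 1 and 1329.8 to 3517 in tumor 2. The luminal keratin gene Krt8 read 36268 to 48254 units in tumor 7, 2881 to 10455 in tumor 1 and 1387 to 8759 in tumor 2. The part of this make-up in the low Perp and Cdkn1a values of tumor 7 was not tested.

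Sesn1 and Sesn2 encode sestrins, stress proteins that restrain mTORC1 signalling. Sesn1 signals were 713 to 1368 units in tumors and 507 to 1230.4 units in the normal gates, and the difference was 0.28 ± 0.26 (limma adjusted p = 0.531). Sesn2 signals were 279 to 3032 units in tumors and 309 to 656 units in the normal gates, with a difference of 0.57 ± 0.31 (adjusted p = 0.283). The groups overlapped for both genes. The highest Sesn2 value, 3032 units, came from tumor 1 CD29L CD24L cells alone, and the next tumor array stood at 910.3 units.

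Trp53inp1 encodes a stress protein that assists p53 in cell death and autophagy, and Zmat3 an RNA-binding zinc-finger protein. Trp53inp1 signals were 2434 to 7950.4 units in tumors and had a wider range of 2501 to 28763 units in the normal gates. Its difference was -1.10 ± 0.31, or 2.14-fold lower in tumors, and it missed the threshold (limma adjusted p = 0.0738). Its adjusted p fell to 0.0302 without tumor 7 and to 0.0478 after a shift of all arrays to 1 median, which gave differences of -1.28 and -1.31. Zmat3 signals were 209 to 954 units in tumors and 612 to 1652 units in the normal gates, with 7 of 12 tumor arrays below all normal ones and a difference of -0.93 ± 0.37 (adjusted p = 0.164). Both genes were lower in tumors on average, and both normal ranges were set by the gate, as described next.

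**Figure D2:**
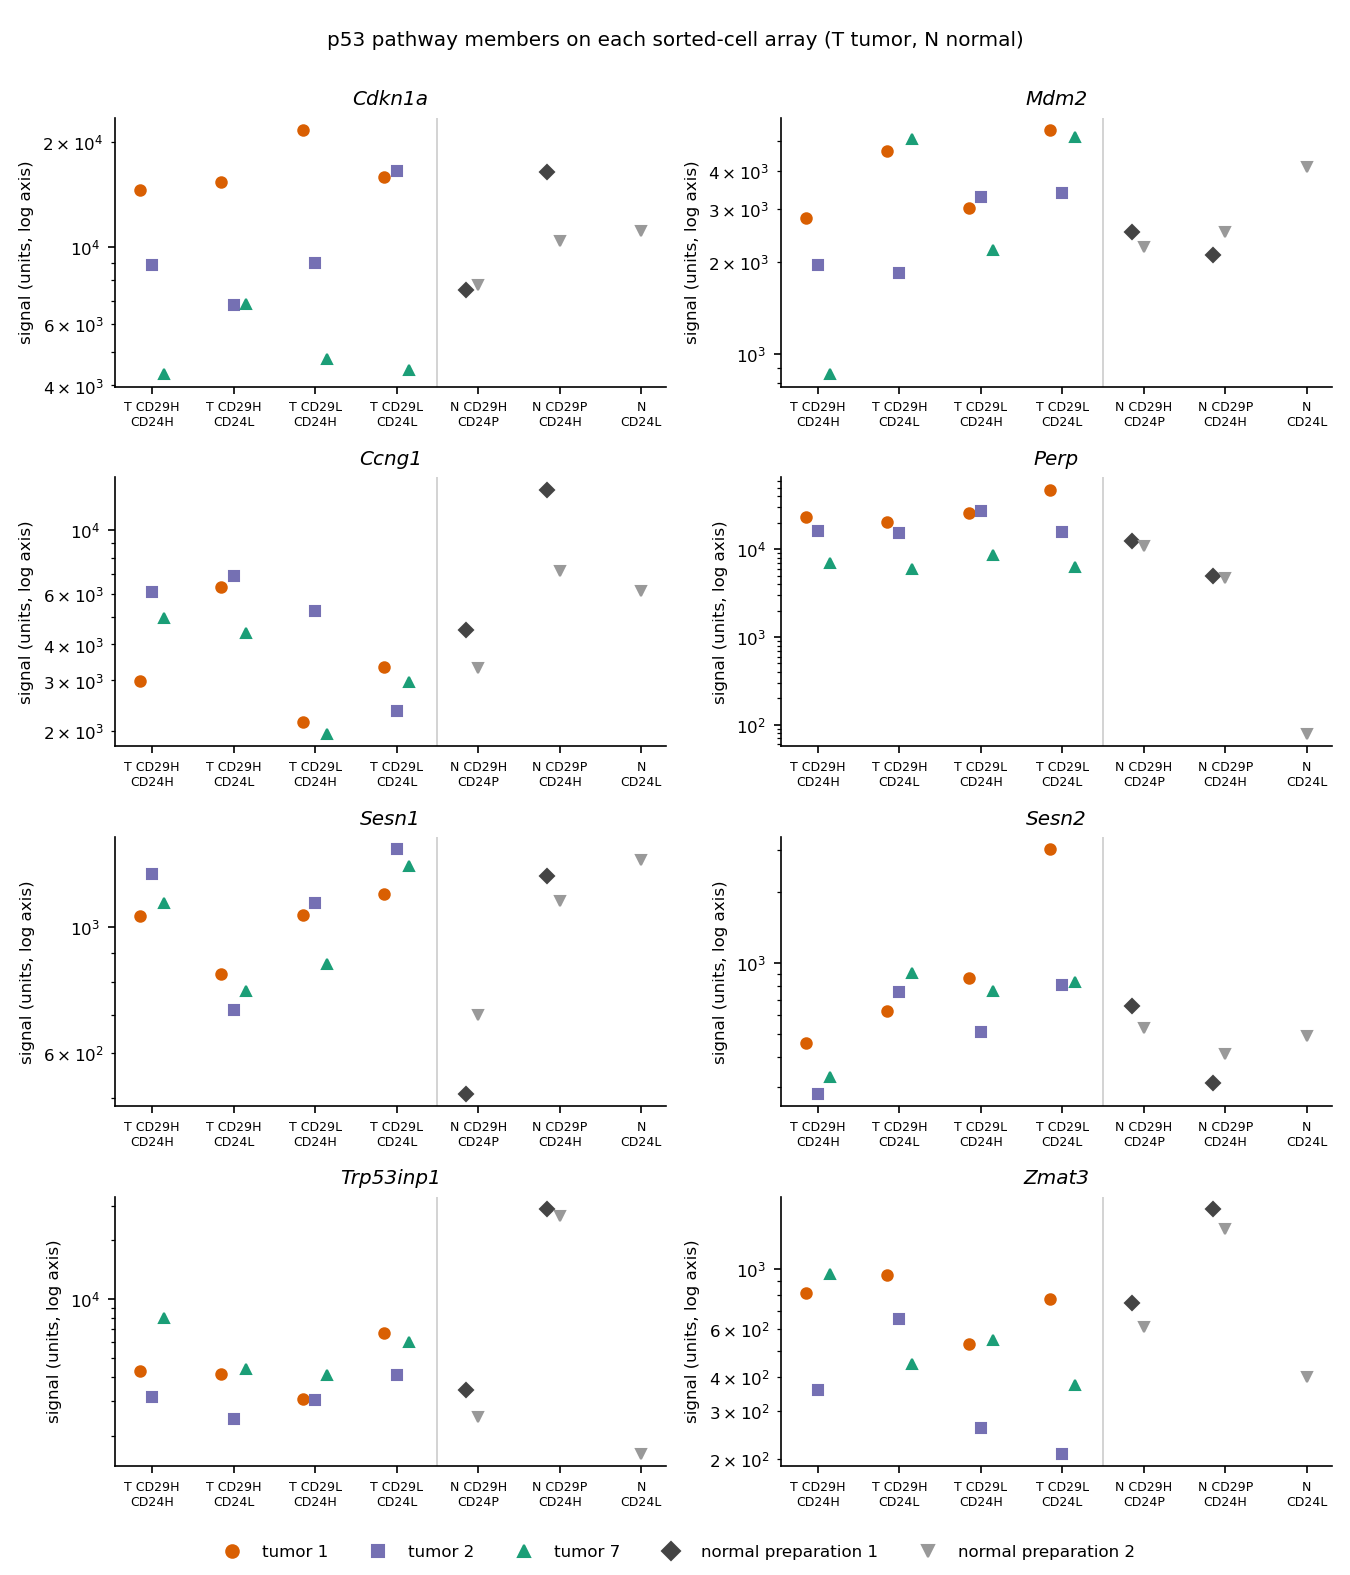
Signal of the 8 measured members (arbitrary units, log axes), 1 panel per gene and 1 point per array, for the 4 tumor fractions (T), the 2 normal gates and the normal CD24L array (N). In the brightest probe sets shown, Cdkn1a and Perp largely follow the tumor, with tumor 7 low. Cdkn1a in CD29H CD24L cells is the exception, with tumors 7 and 2 level at 6855 and 6817 units. Trp53inp1 stands at 26683 and 28763 units in normal CD29P CD24H cells and at 7950.4 units or below on all other arrays.

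The 2 normal gates differed in most members. CD29H CD24P cells carried basal markers (basal list mean 13.8 on the log2 scale, against 7.27 in CD29P CD24H cells) and CD29P CD24H cells luminal ones (luminal list mean 12.9 against 9.64), the basal and luminal compartments of the gland. In CD29H CD24P cells 5 of 8 members, read from the brightest probe set, were lower and 1 was higher (limma, adjusted p under 0.05, n = 2 per gate). Of all genes 27.3% passed, 14% lower and 13.3% higher. With the preparation as a block the same 6 members passed, and 29.1% of all genes. The labels do not say that the preparations came from separate animals, so these p-values may reflect technical spread only. The actin 3'/5' ratio also differed by gate. It was 7.09 and 3.08 in CD29H CD24P cells of preparations 1 and 2, and 24.7 and 6.33 in CD29P CD24H cells. Its part in the differences between the gates was not tested.

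Trp53inp1 differed most among the members. It read 3434 and 2501 units in CD29H CD24P cells against 28763 and 26683 in CD29P CD24H cells, with no overlap. With 2 arrays a gate this was so for 7 of the 8 members (2 higher and 5 lower in CD29H CD24P cells) and for 64.4% of genes tested. The difference was -3.23 ± 0.22, or 9.36-fold lower (limma adjusted p = 1.01e-05). Ccng1 fell by 1.36 (adjusted p = 0.0114), Zmat3 by 1.13 from 1652 and 1399.8 to 746 and 612 units (adjusted p = 0.00962), and Sesn1 by 0.93 from 1230.4 and 1108 to 507 and 698 units (adjusted p = 0.0279). Perp ran the other way and was 2.42-fold higher in CD29H CD24P cells (difference 1.28 ± 0.20, adjusted p = 0.00145).

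Cdkn1a was lower in CD29H CD24P cells by a margin at the threshold (-0.77 ± 0.24, limma adjusted p = 0.0449). It missed the threshold with a smaller offset (0.0516), without the filter (0.108), with the mean of its probe sets (0.534, difference -0.17) and in other settings. The dimmer Cdkn1a probe set had the opposite direction in both preparations. It read 2227 and 2645 units in CD29H CD24P cells of preparations 1 and 2, against 1301 and 2444 in CD29P CD24H cells. Mdm2 and Sesn2 did not pass (0.044 ± 0.24 and 0.67 ± 0.27; adjusted p = 0.917 and 0.0969). Leaving out 1 array at a time moved the count of members from 6 to between 3 and 7; the lowest count came without the CD29H CD24P array of preparation 2, where Sesn1, Zmat3 and Cdkn1a no longer passed.

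In the comparison of gates most alike, the tumor CD29H CD24H cells were set against normal CD29H CD24P cells. None of the 8 members passed (limma), where 4.53% of genes did. At an unadjusted p under 0.05 there were 1 member, Sesn1, and 2690 of the 10916 genes tested. Sesn1 read 1042, 1240 and 1102 units in tumors 1, 2 and 7 against 507 and 698 in normal cells, and its difference was 0.88 ± 0.36 (adjusted p = 0.189). Sesn2 read 459.7, 279 and 330.5 units in tumors against 656 and 530.2 in normal cells, the opposite way. These 2 members showed no overlap between tumor and normal arrays, as did 47.4% of genes tested, so that a lack of overlap is common with so few arrays. Differences of the other members lay between -0.71 for Sesn2 and 0.69 for Trp53inp1. The signs of Cdkn1a, Ccng1, Zmat3 and Perp, all with differences between -0.040 and 0.25, turned in 1 or more alternatives.

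In tumor CD29L CD24H cells against normal CD29P CD24H cells, 1 member passed, Trp53inp1, and it fell; 2.04% of genes were lower and 4.54% passed in either direction. Trp53inp1 read 3098, 3031 and 4110 units in tumors 1, 2 and 7, against 28763 and 26683 in normal cells. The difference was -3.02 ± 0.33, or 8.13-fold lower (limma adjusted p = 0.00869). With either normal array left out, the difference was -2.97 or -3.08 but the adjusted p was 0.167 or 0.152, in fits in which 0 and 3 genes of all those tested passed. The call also depended on the probe set read: in the fit of each probe set by itself, the second Trp53inp1 probe set gave -1.85 ± 0.56 (adjusted p = 0.103).

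Ccng1, Zmat3, Perp, Sesn1 and Sesn2 did not pass. With Trp53inp1 they make 6 of 8 members without overlap between those tumor and normal arrays, 2 higher and 4 lower in tumors, against 44.4% of genes tested. Ccng1 read 2148, 5225 and 1953 units in tumors against 13794 and 7207 in normal cells (difference -1.82 ± 0.53, limma adjusted p = 0.0929). Zmat3 read 528, 260.4 and 546 units against 1652 and 1399.8 (-1.77 ± 0.44, adjusted p = 0.0637). Perp read 25949, 27044 and 8656 units against 4900.2 and 4681 (1.92 ± 0.52, adjusted p = 0.0766). Sesn2 was higher in tumors too, at 868, 509 and 761 units against 309 and 413, and Sesn1 slightly lower, at 1048, 1101 and 860 units against 1230.4 and 1108. In Ccng1 and Perp 1 tumor stood apart from the others, nearer to the normal arrays. Ccng1 passed without tumor 2 (adjusted p = 0.0417), and Perp and Zmat3 passed without tumor 7 (0.00477 and 0.0366). A shift to 1 median also brought Zmat3 past the threshold (-2.06, 0.0387). In these fractions the fibroblast list stood at 9.01 to 11.6 in tumors and 7.33 to 8.62 in normal cells; its part in these differences was not tested.

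**Figure D3:**
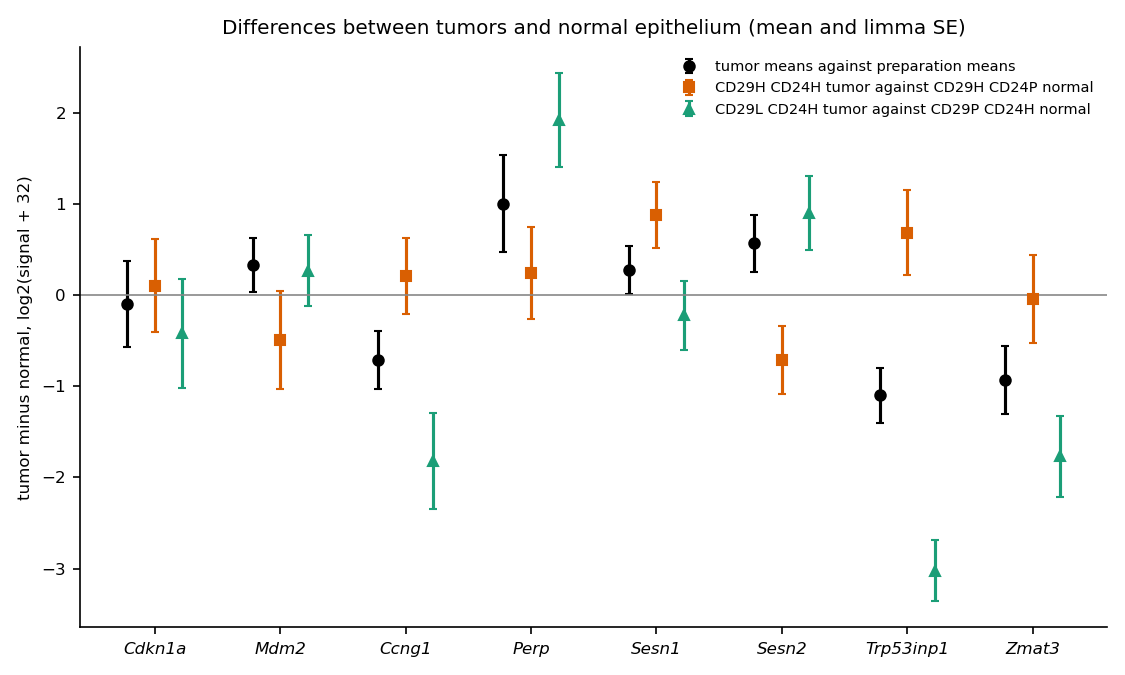
Tumor minus normal difference of each member on the log2(signal + 32) scale, as mean and limma SE, for all fractions together (3 tumors against 2 preparations) and for the 2 pairs of similar gates (3 against 2 arrays). Trp53inp1 lies at -3.02 in CD29L CD24H against CD29P CD24H cells and at 0.69 in CD29H CD24H against CD29H CD24P cells, and the Perp differences run from 0.25 to 1.92.

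Whether the contrast between gates was itself different in tumors was tested on differences within each source, CD29H CD24H minus CD29L CD24H for a tumor and CD29H CD24P minus CD29P CD24H for a preparation. Of the 8 members 5 passed (limma, 3 tumors against 2 preparations), 3 with a higher and 2 with a lower gate difference in tumors, against 13.5% of all genes (5.81% higher and 7.67% lower). The members' median was 0.81 and that of all genes tested -0.0014. The gates are labelled differently in the 2 sources, so that the cells compared are not the same populations: the basal list stood at 9.51 and 9.21 in the 2 tumor fractions, against 13.8 and 7.27 in the 2 normal gates. It differed by tumor as well, at 11.4, 9.76 and 7.33 in CD29H CD24H cells and 10.7, 9.72 and 7.20 in CD29L CD24H cells of tumors 1, 2 and 7. In tumor 7 both fractions were thus at the basal level of normal CD29P CD24H cells. The part of the actin ratio, which differed between the normal gates, was not tested here either.

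For Trp53inp1 the gate difference was 0.46, 0.057 and 0.95 in tumors 1, 2 and 7 and -3.05 and -3.40 in the preparations. The tumor mean of 0.49 and the normal mean of -3.23 differed by 3.71 ± 0.38 (limma adjusted p = 1.4e-05). For Ccng1 it was 0.47, 0.22 and 1.33 in tumors against -1.61 and -1.11 in preparations (2.03 ± 0.41, adjusted p = 0.00376). For Zmat3 it was 0.60, 0.42 and 0.77 against -1.12 and -1.15 (1.73 ± 0.41, adjusted p = 0.00988). In its brightest probe set, each of these genes was lower in the CD29 high gate of normal cells and higher in that of every tumor. They were picked by the test on these same values, so that the pattern of signs is no further support.

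Perp and Sesn2 showed the opposite pattern. The Perp gate difference was -0.14, -0.74 and -0.32 in tumors against 1.33 and 1.22 in preparations (-1.68 ± 0.34, limma adjusted p = 0.00389). The Sesn2 gate difference was -0.87, -0.80 and -1.13 in tumors against 1.01 and 0.34 (-1.61 ± 0.43, adjusted p = 0.022). In the brightest probe sets both were higher in the CD29 high gate of normal cells and lower in that of every tumor. Again the genes were picked by the test on these values, and the signs add no support.

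The other members did not pass. For Sesn1 the estimate was 1.10 ± 0.41 (limma adjusted p = 0.0943), for Cdkn1a 0.52 ± 0.37 (0.407) and for Mdm2 -0.76 ± 0.43 (0.287). The count rested on the normal preparations: without preparation 1 only Trp53inp1 passed (6.18% of genes did), and without preparation 2, 3 members did (7.53% of genes). Leaving out 1 tumor gave 4 or 5 members, and Sesn2 missed the threshold without tumor 1 (adjusted p = 0.0517).

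The calls also depended on the probe set read, in the limma fit of each probe set by itself, in which 10.1% of probe sets passed. The second Trp53inp1 probe set kept its call (2.11 ± 0.55, adjusted p = 0.0248), but not its direction within tumors. There CD29H CD24H minus CD29L CD24H cells gave -0.49 on average, against 0.49 in the brightest probe set. It read 115, 81.0 and 112 units in CD29H CD24H cells of tumors 1, 2 and 7, and 86.0, 114 and 355 in CD29L CD24H cells. Only tumor 1 was thus higher in the CD29 high gate. The other Ccng1 probe sets did not pass (1.41 and 1.06, adjusted p = 0.0703 and 0.196), nor did the second of Sesn2 (-1.53, adjusted p = 0.143). In the first of these Ccng1 probe sets the tumor gate difference was -0.046 on average, and in the other 0.34. The second Sesn2 probe set read 106 units in CD29H CD24P and 122 in CD29P CD24H cells of preparation 2, the opposite order to the brightest. Sesn1 changed the other way. Its second probe set passed at 2.18 ± 0.48 (adjusted p = 0.00939) and a dimmer one did not (0.66, adjusted p = 0.556).

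**Figure D4:**
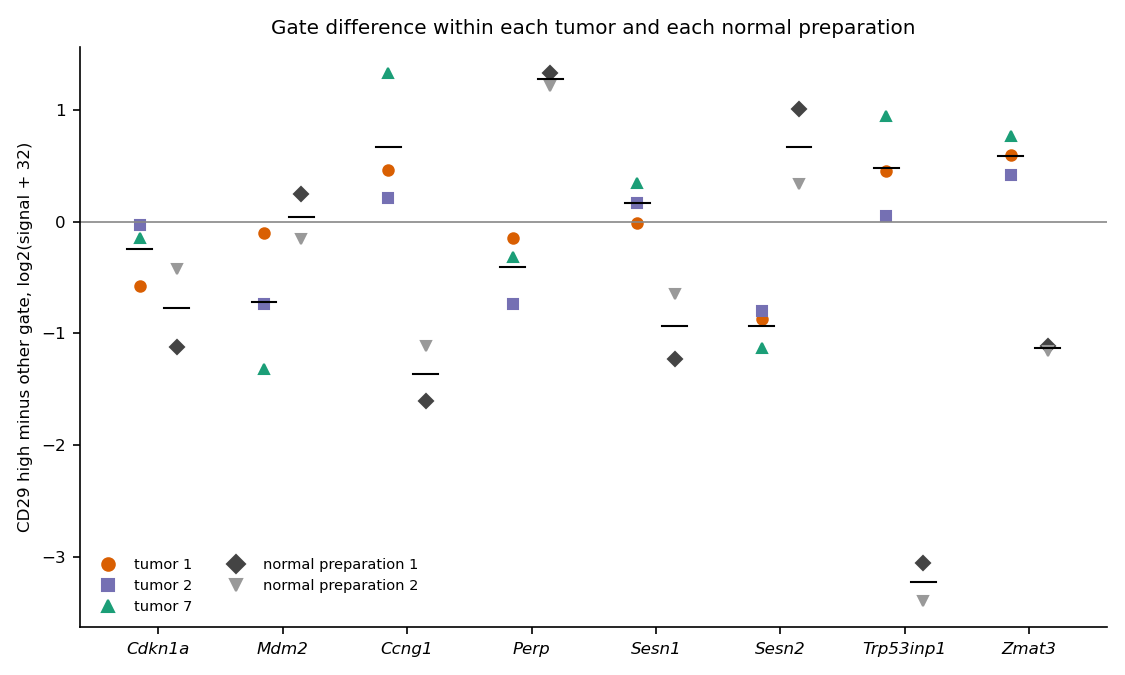
Difference between the CD29 high gate and the other CD24 high gate within each of 3 tumors and 2 normal preparations, on the log2(signal + 32) scale, for the 8 members; horizontal lines are group means. In the brightest probe sets shown, Trp53inp1, Ccng1 and Zmat3 are above 0 in every tumor and below 0 in both preparations, and Perp and Sesn2 the reverse. Those 5 genes were picked by the limma test on the same values, so that their signs are no further support.

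Among the 4 tumor fractions no member passed in any of the 7 comparisons of fractions or in the test of any difference among them. CD29H CD24H cells, the tumor-initiating fraction, were set against the mean of the other 3. Of the 10916 genes 0% passed (limma; 761 at an unadjusted p under 0.05, among them the members Mdm2 and Sesn2). With the tumor as a block, since the fractions of a tumor come from the same tumor, 0.76% of genes passed (83 genes) and still 0 members.

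Sesn2 came closest. It read 459.7, 279 and 330.5 units in CD29H CD24H cells of tumors 1, 2 and 7, and 509 to 3032 units in the other fractions. Its 3 CD29H CD24H arrays lay below the other 9 tumor arrays, which was so for 0.54% of genes tested. The difference to the other fractions was -1.25 ± 0.39 (limma adjusted p = 0.454) and with the block -1.25 ± 0.31 (0.0615). Against CD29L CD24L cells it was -1.78 (adjusted p = 0.449, and 0.0521 with the block). The second, dimmer Sesn2 probe set did not keep this order. It read 65.7, 97.5 and 44.1 units in CD29H CD24H cells, while tumor 1 CD29H CD24L and tumor 7 CD29L CD24L cells read 62.8 and 88.8. Its differences were -0.73 to the other fractions and -0.42 to CD29L CD24L cells.

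Mdm2 was also lowest in CD29H CD24H cells in tumors 1 and 7 and next to lowest in tumor 2. It read 2807, 1955 and 857 units there and 5451, 3391 and 5171 units in CD29L CD24L cells. The difference to the other fractions was -1.07 ± 0.40 (limma adjusted p = 0.573) and with the block ± 0.33 (0.12). The T cell list stood at 8.22 to 9.31 in CD29L CD24L cells and at 5.83 to 6.71 in CD29H CD24H cells. Its part in the Mdm2 and Sesn2 values was not tested.

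Sesn1 was low in another fraction. It read 824, 713 and 769.8 units in CD29H CD24L cells of tumors 1, 2 and 7, below all 9 other tumor arrays (860 to 1368 units), which was so for 0.458% of genes tested. In the second Sesn1 probe set this order was broken: CD29H CD24L cells of tumors 1 and 2 read 737 and 899 units, above tumor 7 CD29L CD24H cells (552) and tumor 1 CD29L CD24L cells (656). In the brightest probe set, against CD29L CD24L cells the difference was -0.69 ± 0.28 (limma adjusted p = 0.473, and 0.167 with the block; 1.08% of genes passed, and 4.49% with the block). CD29H CD24L is the fraction with the highest fibroblast list, 13.1 to 13.5 against 8.97 to 11.6 in the others, and the part of fibroblasts was not tested. Ccng1 was highest there in tumors 1 and 2, at 6318 and 6918 units, and read 4369 in tumor 7.

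In the remaining pairs of fractions the shares of genes that passed in limma without the block, pair by pair, were 2.17% (CD29H CD24H against CD29H CD24L), 0% (against CD29L CD24H), 0.0366% (against CD29L CD24L), 0.0183% (CD29L CD24H against CD29L CD24L) and 1.57% (CD29H CD24L against CD29L CD24H). The test of any difference passed 1.47% of genes. With the tumor as a block these shares were 5.08%, 0.00916%, 0.522%, 0.0824%, 4.12% and 5.42%, in the same order. Against these shares, 0 of 8 members is close to the background.

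**Figure D5:**
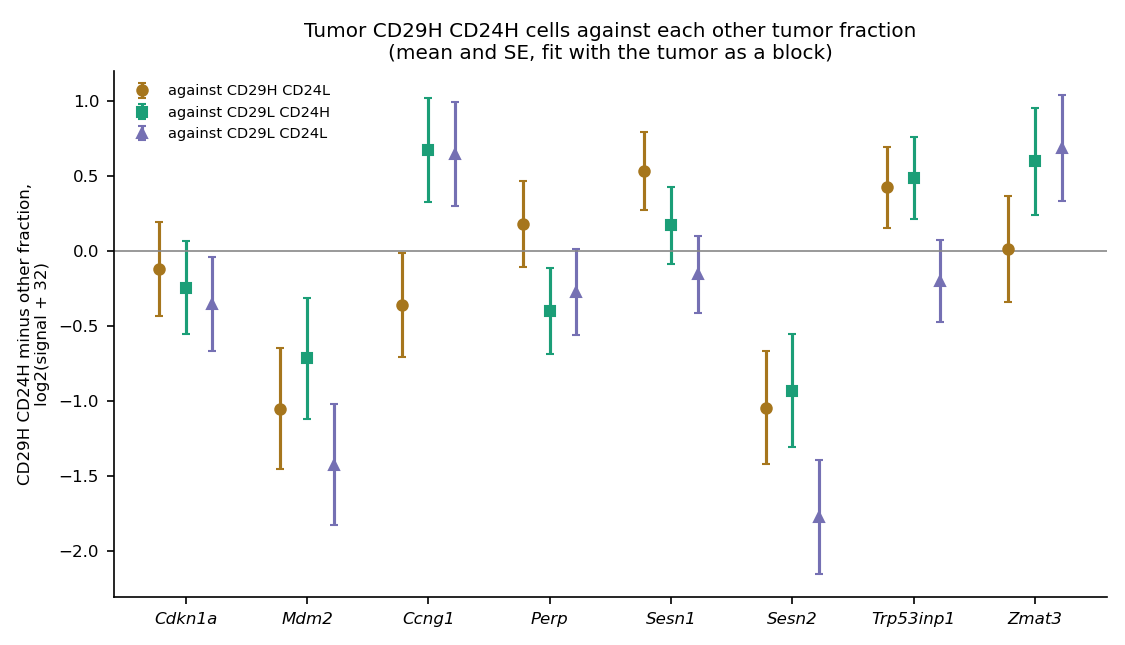
Difference between tumor CD29H CD24H cells and each of the other 3 tumor fractions for the 8 members, on the log2(signal + 32) scale, as mean and limma SE of the fit with the tumor as a block (n = 3 per fraction). Sesn2 and Mdm2 lie below 0 against all 3 fractions, down to -1.78 and -1.43 against CD29L CD24L cells, and no difference passed the threshold.

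How the members varied over the 12 tumor arrays set them apart from one another. For Cdkn1a 81.5% of the variance of log2 values lay between tumors and 2.88% between fractions, and for Perp 84.7% and 6.11%. For Sesn1 it was the reverse, 3.56% and 84.0%, with the smallest spread of the members (SD 0.29, at the 4.47th percentile of genes tested). All these shares are of the brightest probe set of a gene, and those of other probe sets were not computed. The second Sesn1 probe set had a wider range over the tumor arrays, 404 to 1563 units against 713 to 1368 units in the brightest. The medians over all genes tested were 38.4% and 23.3%. Sesn2 (62.1%), Ccng1 (52.0%) and Mdm2 (50.9%) had more variance between fractions than between tumors, while Trp53inp1 (46.5% between tumors and 36.4% between fractions) and Zmat3 (47.6% and 24.9%) were mixed.

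Read from the brightest probe set of each gene, Cdkn1a and Perp correlated at r = 0.80 over the 12 tumor arrays, the highest of the member pairs. Mdm2 and Sesn2 correlated at 0.65. In the dimmer Cdkn1a probe set the highest tumor values, 3091 and 1741 units, came from tumor 2, and its correlations were not computed. The lowest was -0.47, between Sesn1 and Zmat3. These are descriptions over 12 arrays that share 3 tumors. Over all 17 sorted-cell arrays the genes most like Cdkn1a were S100a16 (r = 0.86), Iah1 (0.85) and Serpinb8 (0.84).

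The wider pathway was described through 69 further genes in 5 lists, 65 of them on the table and 57 tested. In tumors against normal cells 2 rose and 2 fell (limma), against 4.35% of genes higher and 2.97% lower, and the lists' median was -0.035 against 0.041 for all genes. Of 10 cell cycle and feedback targets tested, Sfn fell, and of 13 apoptosis and autophagy targets Bbc3 and Dram1 rose. Of 11 metabolism and secreted targets Ephx1 fell, and none of 6 DNA repair targets and none of 17 regulators and relatives passed.

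Sfn encodes 14-3-3 sigma, an epithelial protein that holds cells in G2. It read 5.80 to 186 units on tumor arrays and 175 to 1348 units in the normal gates, and fell by 2.72 (SE 0.45, limma adjusted p = 0.0202). Ephx1, a microsomal epoxide hydrolase, read 90.9 to 424 units against 1388 to 2362 units, without overlap, and fell by 2.70 (SE 0.33, adjusted p = 0.00908). Bbc3, the pro-apoptotic protein Puma, read 183 to 574 units in tumors against 76.4 to 145 units, also without overlap (7.61% of genes tested showed none, and 0 of the 8 members), and rose by 1.47 ± 0.30 (adjusted p = 0.0354). Dram1, a lysosomal protein of autophagy, rose by 2.30 ± 0.37 (adjusted p = 0.0187). It read 479 to 5330 units on tumor arrays, 638 and 644 units in normal CD29H CD24P cells and 56.1 and 69.2 units in CD29P CD24H cells. Between CD29H CD24H tumor cells and CD29H CD24P normal cells it differed by 0.36 (limma adjusted p = 0.729). It read 3085 to 5330 units in CD29H CD24L cells, the fraction of the highest fibroblast list, and 4833 units on the normal CD24L array, where that list is high too. The part of fibroblasts in the Dram1 value was not tested.

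In CD29H CD24H tumor cells against CD29H CD24P normal cells Sfn, Ephx1 and Ak1, an adenylate kinase, fell (-3.39, -3.25 and -2.16, with limma adjusted p = 0.0277, 0.0209 and 0.0467) and none rose. These were 3 of the 57 genes tested, beside 4.53% of all genes. In CD29L CD24H tumor cells against CD29P CD24H normal cells Pmaip1, the pro-apoptotic protein Noxa, rose by 3.13 and Dram1 by 3.36 (adjusted p = 0.0408 and 0.0158), and Ephx1 fell by 2.11 (0.0431). Here 2 of the 57 genes rose and 1 fell, beside 4.54% of all genes in either direction. Both counts are near the shares of all genes, and nothing is read from them about the pathway.

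In the gate difference, 4 of the 57 genes passed upward (Gadd45a, Eda2r, Polk and Hipk2) and 7 downward (Trp63, Dram1, Ak1, Thbs1, Phlda3, Plk3 and Siva1), beside 5.81% and 7.67% of all genes. The counts are near those shares or not far above them, and nothing is read from them about the pathway. Trp63 read 8743 and 10416 units in normal CD29H CD24P cells and 164 and 248 units in CD29P CD24H cells. In tumors it ranged from 189 to 7526 units. Its gate difference was 1.44, 0.22 and 1.13 in tumors 1, 2 and 7 against 5.73 and 4.97 in the preparations (-4.42 ± 0.46, limma adjusted p = 1.4e-05). Gadd45a, a growth arrest and repair gene, ran the other way, from -1.73 on average in the preparations to 0.56 in tumors (2.30 ± 0.40, adjusted p = 0.00122).

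Between tumor fractions Ak1 and Thbs1, the gene of the matrix protein thrombospondin 1, were the pathway genes that passed without the block. In CD29H CD24H against CD29H CD24L cells both fell, Ak1 by 2.92 (limma adjusted p = 0.0115) and Thbs1 with an adjusted p of 0.018, and Dram1 passed as well with the tumor as a block (-2.12, adjusted p = 0.00184). These were 2 of the 57 genes, and 3 with the block, beside 2.17% and 5.08% of all genes tested. In CD29H CD24L against CD29L CD24H cells Eda2r, a receptor of the TNF receptor family, passed with the block as well (1.50 ± 0.39, adjusted p = 0.0431). With the block 4 of the 57 genes passed there, beside 4.12% of all genes tested. Ak1, Thbs1, Dram1 and Eda2r were higher in CD29H CD24L cells, where the fibroblast list was highest, and its part was not tested.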

How the data were processed

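RNA from sorted cells was isolated and amplified in a T7 procedure of 2 rounds, per the labels' protocols. The authors deposited linear probe-set signal intensity values; the submitters' processing notes name GCOS as the tool, with no version. Removing 2% of values at each end gave the same mean on every array. The table has 45101 probe sets, 64 of them controls; 34945 carry 1 gene symbol, 932 several and 9160 none, and only the first kind was used. Detection calls were not used, so that values near background are not told apart from absence. The number of arrays limits the precision.

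Values were taken as log2(value + 32). Each gene was read from its brightest probe set (mean over the 17 sorted-cell arrays), and the dimmest 40% of genes were dropped, leaving 10916 of 18193. An offset this size understates changes of dim genes. Comparisons were fitted over all these genes with limma 3.58.1 (R 4.3.3; linear models with moderated variances and an intensity trend), with Benjamini-Hochberg adjustment and a threshold of 0.05; the procedure was tested on simulated data. Tumor fractions were fitted as 4 group means on 12 arrays. Plots used matplotlib 3.10.9 (Python 3.11.15).

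Samples of the same tumor number share a tumor: residuals of arrays of 1 tumor had correlations of 0.389 to 0.727 (18 pairs), and those of different tumors -0.672 to -0.0441 (48 pairs). The numbers therefore pair the arrays, and fits with the tumor as a block are given where they matter. The arrays of a normal preparation correlated at 0.0623. No arrays were duplicates (highest correlation 0.980).

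The members, gene lists and tests were chosen with earlier results of these data known. The members and the pathway genes that passed were named, with the genes most like Cdkn1a by correlation over 17 arrays. Promoters came from RefSeq (GRCm38.p6). Alternatives were offsets of 1 and 128, quantile normalization, a median shift, no filter and a 60% filter, the mean of probe sets, each probe set, no trend, the replicate block, a random block, the CD24L array added, the CD24 high tumor fractions only, and leaving out each array, tumor or preparation. Another 2, added after seeing the data, took the actin ratio as a covariate and left out the 2 tumor arrays of lowest ratio. Trp53 and Bax were not analysed here.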

Additional observations from a re-analysis of the deposited data

Results flagged for a closer look

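The contrast between gates differed between tumors and normal preparations in 5 members, by the limma test of the difference itself. The estimates, tumor minus normal on the log2 scale, were 3.71 for Trp53inp1, 2.03 for Ccng1 and 1.73 for Zmat3. They were -1.68 for Perp and -1.61 for Sesn2. In the brightest probe set of each of the 5 genes all 3 tumors lay on 1 side of 0 and both preparations on the other. The 5 genes were picked by the limma test on these same values, so that this sign pattern is no further support. The share of all genes with the pattern was not counted. Of all genes tested 13.5% passed the same test. Without normal preparation 1, 1 of the members passed, Trp53inp1.

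The normal CD24L array entered no main comparison. Mdm2 read 4115 units there and Sesn1 1312 units, above the highest values of the normal gates, 2509 and 1230.4 units. This array is a single one, and its fibroblast list is higher than on any tumor array (14.2 against at most 13.5).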

How the results depend on the processing

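Member differences were recomputed in tumors against normal, in CD29H CD24H against CD29H CD24P, in CD29L CD24H against CD29P CD24H and in the gate difference. The same was done for CD29H CD24H against the other fractions and for the normal gates. Of these values 755 kept their direction and side of the threshold, 22 no longer passed, 8 newly passed and 23 changed sign. Members that passed in neither fit count as kept. The main fits called 0, 0, 1, 5, 0 and 6 of 8 members, in that order, and the 22 losses fell on those calls. A median shift gave 1 member in tumors against normal and 2 in CD29L CD24H against CD29P CD24H cells, where the main counts were 0 and 1. Leaving out 1 array, tumor or preparation gave 0 to 2, 0 to 3, 1 to 5 and 3 to 7 members in tumors against normal, in CD29L CD24H against CD29P CD24H cells, in the gate difference and between the normal gates, and 0 in the remaining comparisons. The fit with the tumor or preparation as replicate block gave 0 members in every comparison of tumor fractions and 6 between the normal gates, and changed no call on a member.

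The values that changed sign were for Mdm2 in tumors against normal with the CD24 high fractions only (-0.11). In CD29H CD24H against CD29H CD24P cells they were for Zmat3 after quantile normalization (0.039), Cdkn1a after a median shift (-0.049), and Cdkn1a and Ccng1 with the mean of probe sets (-1.17 and -0.26). Mdm2 changed sign in CD29L CD24H against CD29P CD24H cells after a median shift (-0.015), and Trp53inp1 in CD29H CD24H cells against the other fractions with the mean of probe sets (-0.081). Leaving out 1 array, tumor or preparation gave ranges across 0 for Cdkn1a in tumors against normal (-0.51 to 0.35), for Cdkn1a (-0.31 to 0.57), Ccng1 (-0.0069 to 0.50), Perp (-0.14 to 0.74) and Zmat3 (-0.30 to 0.37) in CD29H CD24H against CD29H CD24P cells, and for Cdkn1a in CD29L CD24H against CD29P CD24H cells (-0.99 to 0.099). The same held for Cdkn1a (-0.65 to 0.22), Perp (-0.55 to 0.33) and Trp53inp1 (-0.14 to 0.53) in CD29H CD24H cells against the other fractions, and for Mdm2 between the normal gates (-0.079 to 0.17). The causes were not tested. Without either normal preparation 0 genes of all tested passed in tumors against normal. The settings added after seeing the data gave 0 members wherever they were run. Signal over background was not known, since detection calls were not used.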

Other observations

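On the normal CD24L array Perp read 78.2 units, against 4681 to 12374 units in the normal gates, and Trp53inp1 1617 units. On the reference RNA array, which belongs to no group, Ccng1 read 13752 units and Perp 1903 units. Both are single arrays, and no comparison was made with them.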
